A study of Mus musculus with 30 samples.

Results

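Ccl3, Ccl4, Ccl5, Ccl1, Ccl9, Xcl1 and Cxcl10 encode chemokines that activated CD8 T cells of mice can release. They were taken by symbol from a table of 55573 genes, and all 7 were found and passed the filter on low counts, which left 11718 genes. The RNA came from naive CD8 T cells of C57BL/6 mice, 8 weeks old, which magnetic beads had separated from lymph node and spleen cells. All of them were then activated without serum for 3 days by plate-bound anti-CD28 and anti-CD3, each at 5 µg/ml. The 6 groups were Furin knockout (KO) and wild-type (WT) cells with IL12 at 10 ng/ml, KO and WT cells with TGFB1 at 0.5 ng/ml, and KO and WT cells with no added cytokine. Each group had 5 libraries, of which 4 came from females and 1 from a male. The labels do not say how Furin was deleted or in which cells, nor that the cultures came from separate animals, so p-values measure the spread between these libraries, which may be technical. The genes are described by their levels in the 6 groups, and by the comparisons of KO with WT cells and of each cytokine with none.

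Chemokines are small secreted proteins that attract other cells through receptors coupled to G proteins, and the spacing of their first cysteines sorts them into families. Ccl3, Ccl4 and Ccl5 are hallmark products of activated cytotoxic T cells, while Xcl1 draws the dendritic cells that carry Xcr1 and present antigen to CD8 cells. Furin is a protease of the secretory pathway that cleaves precursor proteins, among them that of TGFB1. IL12 drives CD8 cells toward effector function and TGFB1 restrains it.

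The stretch of coding sequence around the first cysteines is shown for all 7 genes because it defines the families that the gene names refer to. The runs are 45 bases of the GENCODE vM21 reference transcripts, from 4 codons before the first cysteine of the family signature, with the signature cysteine codons in capitals.
Ccl3: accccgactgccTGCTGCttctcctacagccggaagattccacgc
Ccl4: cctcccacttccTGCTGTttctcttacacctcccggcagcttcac
Ccl5: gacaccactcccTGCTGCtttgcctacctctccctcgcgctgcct
Ccl1: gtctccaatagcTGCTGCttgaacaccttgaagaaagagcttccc
Ccl9: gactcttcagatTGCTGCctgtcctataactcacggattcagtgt
Xcl1: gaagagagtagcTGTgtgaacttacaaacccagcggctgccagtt
Cxcl10: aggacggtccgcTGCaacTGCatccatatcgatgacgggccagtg
The first 5 genes hold adjacent cysteine codons and belong to the CC family, Cxcl10 holds 1 codon between them as a CXC chemokine, and Xcl1 has a single cysteine there as a C chemokine. Across their coding sequences Ccl3 and Ccl4 were identical at 71.4% of the aligned bases. The longest run of bases shared by their whole reference transcripts was 9.

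On GRCm38 Ccl5 (ENSMUSG00000035042, chromosome 11, 83525778 to 83530518), Ccl9 (ENSMUSG00000019122, 83572919 to 83578636), Ccl3 (ENSMUSG00000000982, 83647844 to 83649355) and Ccl4 (ENSMUSG00000018930, 83662584 to 83664683) lie in that order on chromosome 11. Ccl4 is on the plus strand and the other genes are on the minus strand. The stretch holds 7 annotated genes, of which these and Ccl6 passed the filter. Ccl1 (ENSMUSG00000020702, 82176657 to 82305690) is on chromosome 11 as well, Xcl1 (ENSMUSG00000026573, 164931644 to 164935527) is on chromosome 1 and Cxcl10 (ENSMUSG00000034855, 92346638 to 92348889) is on chromosome 5. Exons of Xcl1 overlap the antisense gene Gm20743 and those of Cxcl10 overlap Art3, which runs the other way. The strand setting of the counting is not given, so reads of these pairs may not be told apart, and 15 counts were given to Gm20743 and 21 to Art3 over all libraries.

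Library totals ran from 7306151 to 15502443 counts. The 8 CD8 T cell markers, among them Cd3e, Cd8a and Cd8b1, all passed the filter and summed to 2543 to 5292 CPM, which are counts scaled to the total of a library, in each library, against 2.44 to 14.7 CPM for 12 macrophage and monocyte markers, of which 3 passed. C1qa was at 0 counts in all groups. The macrophage and monocyte sum had a mean of 10.8 CPM in KO and 7.67 CPM in WT cells with TGFB1, where Mpeg1 was higher in KO on 250 counts against 114 (adjusted p = 0.00354), and 5.85 CPM in KO and 5.16 CPM in WT cells with IL12, where Mpeg1 was higher in KO on 28 counts against 4 (adjusted p = 0.0331). Of the CD8 markers, 5 of 8 were lower and 0 higher in KO than in WT cells with TGFB1, beside 17.3% of all genes lower and 18.3% higher. The part of these markers in the differences between KO and WT cells was not tested. The NK cell markers summed to a mean of 26.7 CPM in KO and 39.5 CPM in WT cells with IL12, 2.25 CPM in KO and 4.44 CPM in WT cells with TGFB1, and 9.40 CPM in KO and 17.3 CPM in WT cells without cytokine. Eomes, which activated CD8 cells also express, made up 24.5 CPM of that sum in KO and 36.5 CPM in WT cells with IL12, and 1.08 CPM in KO and 3.64 CPM in WT cells with TGFB1. The defining genes Ncr1, Klrb1c, Klra8 and Klra4 had 3 to 8 counts each over the 5 libraries in KO and 6 to 15 in WT cells with IL12, 0 in both groups with TGFB1, and 0 to 11 in KO and 2 to 6 in WT cells without cytokine. Furin itself had means of 214 ± 142 CPM in KO cells and 374 ± 186 CPM in WT cells with IL12, 77.8 ± 9.25 CPM in KO and 80.8 ± 7.63 CPM in WT cells with TGFB1, and 32.6 ± 0.828 CPM in KO and 34.5 ± 3.56 CPM in WT cells without cytokine (SD, n = 5 each). It was called in none of these KO against WT comparisons, and since counts over the whole gene include exons outside any deleted part, this does not check the labels.

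Xcl1, Ccl3 and Ccl4 made up 93.6% of the counts of the 7 genes. Per kilobase of exon, mean levels with IL12 in KO cells were 989.6 CPM for Xcl1, 537 for Ccl3, 409 for Ccl4, 31.3 for Ccl9, 13.2 for Ccl5, 1.46 for Cxcl10 and 0.352 for Ccl1. In WT cells without cytokine they were 277 CPM for Xcl1, 122 for Ccl4, 109 for Ccl3, 4.15 for Ccl5, 2.42 for Ccl9, 0.295 for Cxcl10 and 0.125 for Ccl1. Ccl9 thus stood below Ccl5 per kilobase in WT cells without cytokine and above it in KO cells with IL12. The order per kilobase depends on the length used, which joined all annotated exons, 3045 bases for Ccl9 and 960 for Ccl5. In CPM not divided by length Ccl9 was above Ccl5 in both groups, at 7.37 against 3.98 CPM in WT cells without cytokine. Together the 7 genes took 0.133% of all counts in KO and 0.0745% in WT cells with IL12, 0.0400% in KO and 0.0306% in WT cells with TGFB1, and 0.0732% in KO and 0.0319% in WT cells without cytokine.

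**Figure D1:**
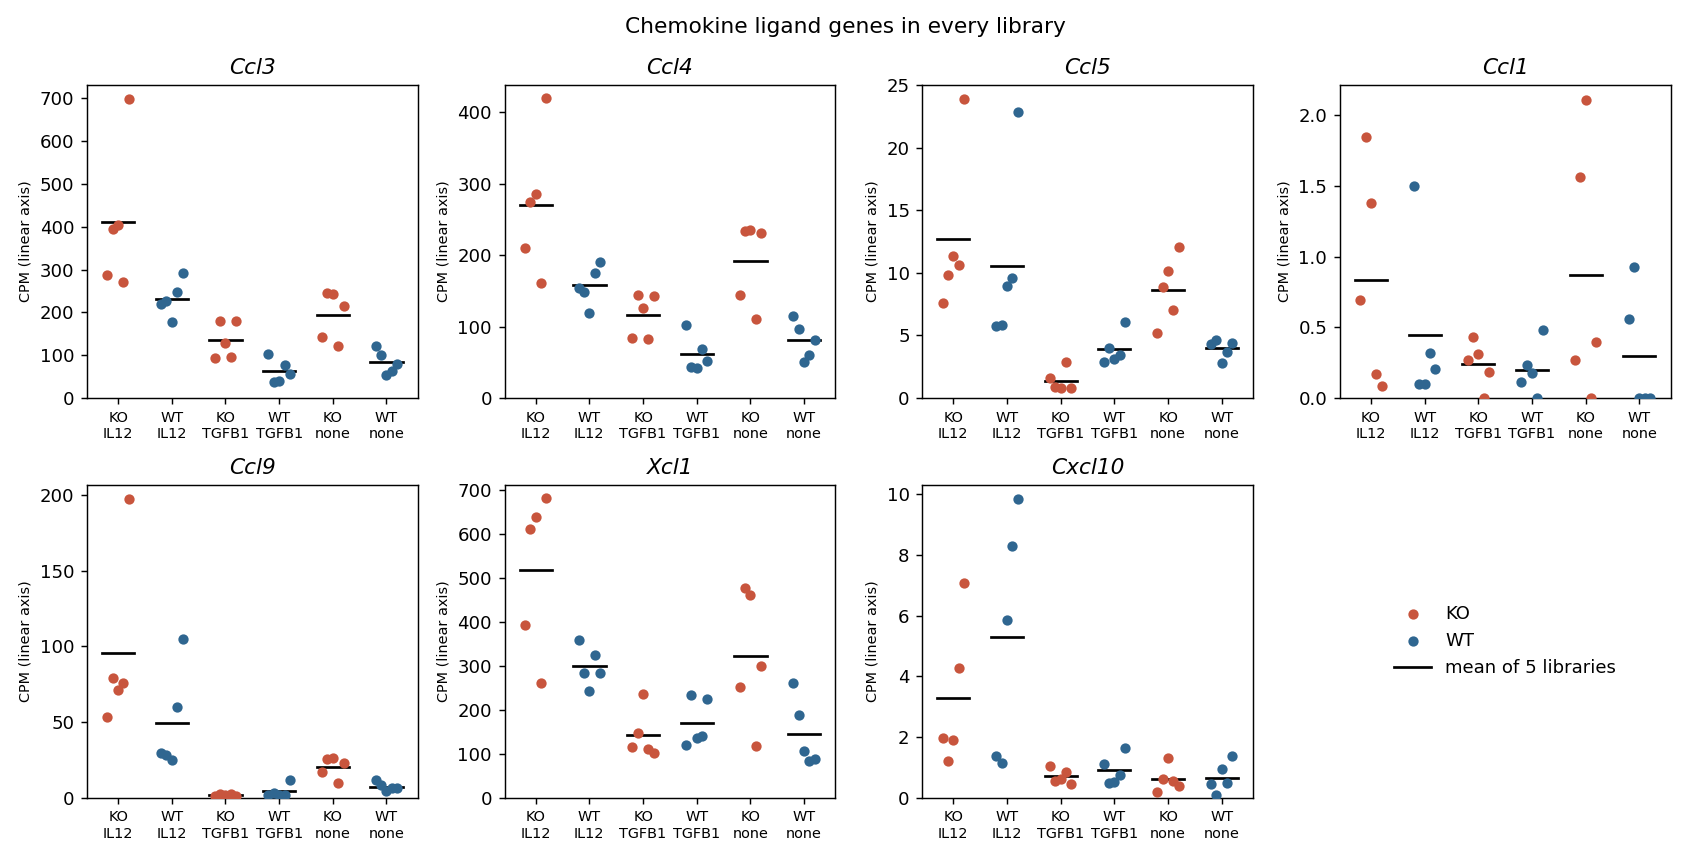
CPM of the 7 genes in each of the 30 libraries on linear axes that start at 0, by genotype and cytokine, with a black line at the mean of the 5 libraries of a group. Ccl3 and Ccl4 have their highest mean in KO cells with IL12 and their lowest in WT cells with TGFB1, Ccl9 is near the bottom of its axis in both groups with TGFB1, and Ccl5 in KO cells with TGFB1 has the lowest mean of the 6 groups, at 1.39 CPM.

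Values per library are given in CPM scaled by TMM factors, in the order of the numbers in the library titles, which are 63, 68, 70, 73 and 74 for KO and 62, 67, 71, 72 and 75 for WT, where 63 and 62 were the males. A gene is called where the adjusted p of edgeR's quasi-likelihood test, fitted over all 11718 genes and 30 libraries, is below 0.05, and fold changes are log2 values with their standard error (SE).

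Ccl3 encodes an inflammatory CC chemokine that binds Ccr1. Without cytokine it had 143, 245, 242, 121 and 215 CPM in KO libraries, against 122, 101, 53.5, 62.4 and 78.7 CPM in WT libraries. All KO libraries but 73 lay above all WT libraries, and KO library 73 fell just under WT library 62. With TGFB1 it had 93.5, 181, 128, 95.1 and 180.2 CPM in KO libraries, against 102, 37.4, 39.3, 77.4 and 55.6 CPM in WT libraries, where again WT library 62 alone reached into the range of KO. Ccl3 was higher in KO cells by 1.21 ± 0.29 without cytokine (adjusted p = 0.0263) and by 1.12 ± 0.29 with TGFB1 (adjusted p = 0.00407). In bulk RNA, fewer cells that express a gene and less of its RNA per cell cannot be told apart.

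With IL12 Ccl3 had 287, 395, 405, 271 and 698 CPM in KO libraries, against 220.3, 226, 177, 248 and 291 CPM in WT libraries. KO library 74 was the highest of all 30 and the ranges overlapped through KO libraries 63 and 73. The KO against WT difference with IL12 was 0.82 ± 0.28 and was not called (adjusted p = 0.0679). It was called with no filter, in females only, and without WT library 62 with TGFB1 or KO library 73 with IL12. Against no cytokine, IL12 raised Ccl3 by 1.09 ± 0.28 in KO (adjusted p = 0.00820) and by 1.47 ± 0.29 in WT cells (adjusted p = 0.000613), with no overlap of libraries in either genotype. TGFB1 against no cytokine gave -0.51 ± 0.28 in KO and -0.43 ± 0.29 in WT cells, neither of them called. With title numbers as a block, which the labels do not tie to animals, the KO value was called (adjusted p = 0.0294). The difference between genotypes in the TGFB1 response was -0.08 ± 0.40 (adjusted p = 0.925). The call of KO against WT without cytokine was lost when any of KO libraries 68, 70 or 74 or WT libraries 71, 72 or 75 was left out (highest adjusted p = 0.104), and that of IL12 in KO was lost without KO library 74 with IL12 (adjusted p = 0.0558).

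Ccl4, an inflammatory CC chemokine that attracts T cells and monocytes, followed Ccl3 closely. Without cytokine it had 144, 233, 236, 111 and 231 CPM in KO libraries, against 114, 96.8, 50.4, 60.4 and 81.9 CPM in WT libraries. With TGFB1 it had 84.5, 144, 125, 83.4 and 143 CPM in KO libraries, against 102, 43.6, 41.8, 69.0 and 52.2 CPM in WT libraries. The same libraries stood out as for Ccl3, with KO library 73 low and WT library 62 high. KO exceeded WT cells by 1.24 ± 0.27 without cytokine (adjusted p = 0.0177) and by 0.91 ± 0.27 with TGFB1 (adjusted p = 0.00988). Without cytokine this call was lost when any of KO libraries 68, 70 or 74 or WT libraries 71 or 72 was left out (highest adjusted p = 0.0791).

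With IL12 Ccl4 had 209.7, 275, 286, 161 and 419.6 CPM in KO libraries, against 154, 149, 119, 176 and 191 CPM in WT libraries, a difference of 0.78 ± 0.26 that was not called (adjusted p = 0.0662). That difference was called in the same settings as the Ccl3 difference with IL12. IL12 against no cytokine raised Ccl4 by 0.96 ± 0.27 in WT cells (adjusted p = 0.0119), where no library overlapped, and the change in KO cells of 0.50 ± 0.26 was not called (adjusted p = 0.213). With title numbers as a block, which the labels do not tie to animals, the KO change was called (adjusted p = 0.0218). TGFB1 lowered Ccl4 in KO cells, with a log2 fold change of -0.72 ± 0.26 (adjusted p = 0.0454), and this call was lost without any 1 of 11 libraries, with adjusted p up to 0.125. In WT cells the TGFB1 value was -0.39 ± 0.27 (adjusted p = 0.261, or 0.0403 with title numbers as a block).

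Although both genes moved together, IL12 shifted their balance toward Ccl3. The ratio of Ccl3 to Ccl4 counts within a library was 1.37, 1.44, 1.42, 1.69 and 1.67 in KO and 1.43, 1.52, 1.48, 1.41 and 1.53 in WT libraries with IL12. It was 1.11, 1.25, 1.02, 1.14 and 1.26 in KO and 0.995, 0.857, 0.941, 1.12 and 1.06 in WT libraries with TGFB1. Without cytokine it was 0.990, 1.05, 1.03, 1.09 and 0.931 in KO and 1.07, 1.04, 1.06, 1.03 and 0.961 in WT libraries. All 10 libraries with IL12 lay above all 20 others, and those without cytokine were close to equal counts of both genes.

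The mean ratio with IL12 was 1.51 ± 0.148 in KO and 1.47 ± 0.0516 in WT cells, against 1.02 ± 0.0600 in KO and 1.03 ± 0.0434 in WT cells without cytokine (SD, n = 5 each). The difference in log2 ratio between IL12 and no cytokine was 0.57 ± 0.07 in KO and 0.51 ± 0.04 in WT cells (SE; two-sided exact permutation p = 0.00794 each, the smallest that 252 splits allow; 0.0179 adjusted over 9 comparisons). KO against WT cells with TGFB1 gave 0.22 ± 0.09 (exact permutation p = 0.0476, adjusted p = 0.0714), and KO against WT cells without cytokine gave -0.02 ± 0.05 (exact permutation p = 0.627, adjusted p = 0.627). A ratio within a library does not depend on its total. The ratio was chosen after the values of both genes had been seen, and the adjustment over 9 comparisons does not cover that choice. Leaving out any 1 library kept the IL12 differences between 0.49 and 0.61.

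**Figure D2:**
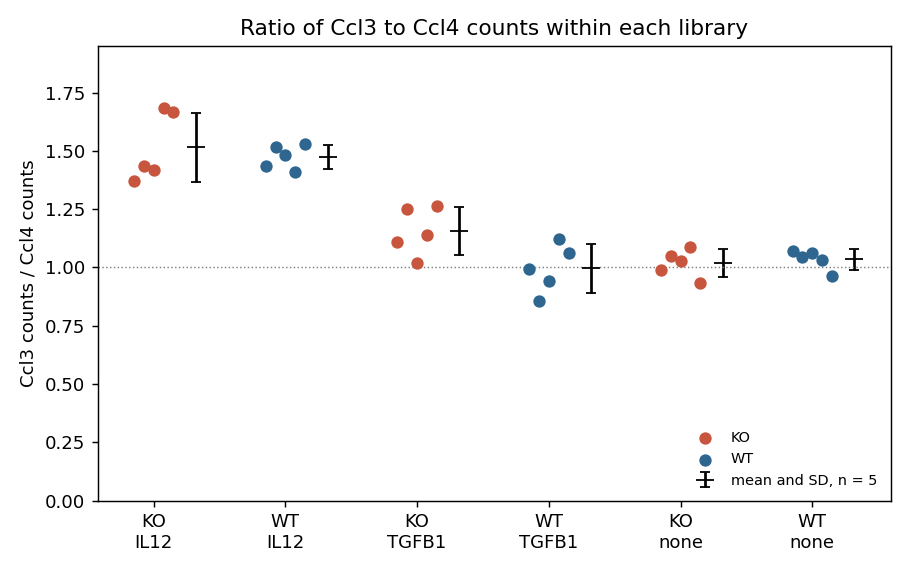
Ratio of Ccl3 to Ccl4 counts (y axis, no unit) in each library by genotype and cytokine (x axis), with the mean and SD of the 5 libraries beside the points and a dotted line at equal counts. The libraries with IL12 lie between 1.37 and 1.69, above all libraries of the other 4 groups.

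Ccl5, known as RANTES, binds Ccr1 and marks memory and effector CD8 cells. It was low in these cultures, with 2120 counts over all libraries. With TGFB1 it had 1.59, 0.862, 0.830, 2.84 and 0.828 CPM in KO libraries, against 2.91, 4.01, 3.09, 3.41 and 6.05 CPM in WT libraries. Every KO library lay below every WT library. Without cytokine the order was the opposite, with 5.18, 8.86, 10.2, 7.01 and 12.1 CPM in KO libraries, against 4.33, 4.62, 2.82, 3.71 and 4.42 CPM in WT libraries, and no overlap either. Ccl5 was lower in KO cells with TGFB1 by a log2 fold change of -1.47 ± 0.44 (adjusted p = 0.0102), while the value of 1.11 ± 0.36 without cytokine was not called (adjusted p = 0.0989). That value without cytokine was called by DESeq2, when only the groups compared were fitted, and without WT library 75 with IL12.

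TGFB1 against no cytokine lowered Ccl5 in KO cells, at -2.62 ± 0.41 (adjusted p = 2.34e-05), and gave -0.03 ± 0.38 in WT cells (adjusted p = 0.954). The difference between these responses, KO minus WT, was -2.58 ± 0.57 and was called (adjusted p = 0.0198). Without WT library 75 with TGFB1, the highest of its group, the difference was -2.38 and was not called (adjusted p = 0.0588). Of the libraries with IL12, KO had 7.62, 9.86, 11.4, 10.7 and 23.9 CPM, against 5.73, 5.81, 8.95, 9.56 and 22.9 CPM in WT, and in each genotype 1 library stood far above the other 4. IL12 raised Ccl5 in WT cells by 1.41 ± 0.36 (adjusted p = 0.00658), a call lost without WT library 75 with IL12 (adjusted p = 0.0623), and gave 0.56 ± 0.33 in KO cells (adjusted p = 0.284).

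Ccl9, a CC chemokine of mice that binds Ccr1, had the largest ratio of highest to lowest group mean of the 7 genes. It had 53.6, 78.9, 71.3, 75.9 and 197 CPM in KO libraries with IL12, against 29.9, 28.4, 24.9, 60.2 and 105 CPM in WT libraries with IL12. With TGFB1 it had 1.33, 2.80, 2.08, 2.46 and 1.38 CPM in KO libraries, against 1.68, 3.18, 2.12, 2.08 and 12 CPM in WT libraries. Without cytokine it had 16.9, 25.6, 26.2, 9.71 and 23.1 CPM in KO libraries, against 11.4, 8.63, 4.24, 6.21 and 6.35 CPM in WT libraries. WT library 75 was the highest WT library with either cytokine, and the other 9 libraries with TGFB1 lay at 3.18 CPM or below. Group means ran from 2.01 CPM in KO cells with TGFB1 to 95.4 CPM in KO cells with IL12, 47.5 times as much.

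IL12 raised Ccl9 by 2.24 ± 0.42 in KO (adjusted p = 0.000467) and by 2.74 ± 0.45 in WT cells (adjusted p = 9.53e-05), with no overlap of libraries in either. TGFB1 lowered it in KO cells, at -3.32 ± 0.54 (adjusted p = 4.15e-05), again without overlap. In WT cells the TGFB1 value was -0.80 ± 0.52 (adjusted p = 0.234), and without WT library 75 with TGFB1 it was -1.70 (adjusted p = 0.018). The difference between genotypes in the TGFB1 response was -2.52 ± 0.77 (adjusted p = 0.0599), not called; without that library it was -1.62 (adjusted p = 0.268), and it was called without any 1 of WT libraries 62 and 72 with TGFB1, KO library 74 with IL12, WT library 75 with IL12 and KO library 73 without cytokine (adjusted p = 0.0178 to 0.0453) and by DESeq2 (adjusted p = 0.0152). KO against WT cells gave 0.94 ± 0.39 with IL12, -1.07 ± 0.62 with TGFB1 and 1.45 ± 0.46 without cytokine, none of them called (adjusted p = 0.135, 0.179 and 0.0889 in that order). The value without cytokine was called when only the groups compared were fitted and without KO library 73 without cytokine. The value with IL12 was called by limma-voom, with and without title numbers as a block.

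The neighbouring gene Ccl6, a related CC chemokine of mice, shares 70.4% of aligned coding bases with Ccl9. Their whole reference transcripts share a run of 25 bases, so that short stretches of reads may not tell them apart. Ccl6 had means of 8.72 ± 2.88 CPM in KO cells and 8.22 ± 6.62 CPM in WT cells with IL12, 1.68 ± 0.695 CPM in KO and 6.17 ± 7.94 CPM in WT cells with TGFB1, and 9.68 ± 3.13 CPM in KO and 5.53 ± 4.37 CPM in WT cells without cytokine (SD, n = 5 each). IL12 against no cytokine gave -0.15 ± 0.57 in KO and 0.58 ± 0.61 in WT cells for Ccl6, and neither was called. TGFB1 lowered Ccl6 in KO cells, at -2.52 ± 0.68 (adjusted p = 0.00739), as it did Ccl9.

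Xcl1, the ligand of Xcr1, was the most abundant of the 7 genes. With IL12 it had 393, 612, 639.5, 261 and 683 CPM in KO libraries, against 359, 284, 243, 325 and 284 CPM in WT libraries. With TGFB1 it had 115, 147, 236, 111 and 103 CPM in KO libraries, against 121, 233, 137, 140.0 and 225 CPM in WT libraries. Without cytokine it had 252, 477, 462, 117 and 300.5 CPM in KO libraries, against 261, 187, 105, 83.2 and 87.5 CPM in WT libraries. Without cytokine KO library 73 was lower than 2 of the WT libraries, and the groups overlapped in all 3 conditions. KO against WT cells gave 0.79 ± 0.33 with IL12, -0.27 ± 0.33 with TGFB1 and 1.15 ± 0.33 without cytokine, and none was called (adjusted p = 0.132, 0.553 and 0.0638 in that order). The value without cytokine was called with no filter, by DESeq2, in females only and with a term for title numbers above 70. Leaving out KO library 73 with IL12, KO library 73 without cytokine or WT library 62 without cytokine also gave a call.

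TGFB1 lowered Xcl1 in KO cells, at -1.17 ± 0.33 (adjusted p = 0.0101), and gave 0.24 ± 0.33 in WT cells (adjusted p = 0.597). The difference between these responses was -1.41 ± 0.47 (adjusted p = 0.0777), which was not called. IL12 raised Xcl1 in WT cells by 1.04 ± 0.33 (adjusted p = 0.0276) and gave 0.69 ± 0.33 in KO cells (adjusted p = 0.169). With title numbers as a block, which the labels do not tie to animals, this KO value was called (adjusted p = 0.0330). The block also called the difference in TGFB1 response (adjusted p = 0.0196). The call in WT was lost without WT library 72 with IL12 or WT libraries 71, 72 or 75 without cytokine (highest adjusted p = 0.0772). Beside these values, the summed NK markers given above, which with IL12 were mostly Eomes, were higher with IL12 and lower with TGFB1 than without cytokine in both genotypes. Xcl1 was not lower with TGFB1 in WT cells, and the part of these markers in its level was not tested.

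Cxcl10 encodes a ligand of Cxcr3 that many cells make in response to interferon gamma. It was nearly silent without IL12, with group means of 0.707 CPM in KO and 0.902 CPM in WT cells with TGFB1 and of 0.612 CPM in KO and 0.665 CPM in WT cells without cytokine. With IL12 it had 1.96, 1.21, 1.90, 4.27 and 7.07 CPM in KO libraries, against 1.36, 1.16, 5.87, 8.30 and 9.83 CPM in WT libraries. The ranges with IL12 and without cytokine overlapped through KO library 68 and WT library 67 with IL12, and 2 KO and 3 WT libraries with IL12 exceeded 4 CPM. IL12 against no cytokine raised Cxcl10 by 2.48 ± 0.61 in KO (adjusted p = 0.00591) and by 3.00 ± 0.59 in WT cells (adjusted p = 0.000681). KO against WT cells gave -0.70 ± 0.47 with IL12 (adjusted p = 0.374), making Cxcl10 the only one of the 7 genes with a negative value there, though it was not called.

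Ccl9 and Cxcl10 had the steepest IL12 responses of the 7 genes, and the 250 bases before their starts are shown for that reason. The sequences are from RefSeq on GRCm38.p6 and read 5′ to 3′ on the minus strand, with matches on either strand in capitals for kappaB-like GGANNTTCC, ISRE-like GAAANNGAA, AP-1 TGANTCA, GAS TTCNNNGAA and the TATA box with the letters TATAAA.
Ccl9, chr11:83578637-83578886: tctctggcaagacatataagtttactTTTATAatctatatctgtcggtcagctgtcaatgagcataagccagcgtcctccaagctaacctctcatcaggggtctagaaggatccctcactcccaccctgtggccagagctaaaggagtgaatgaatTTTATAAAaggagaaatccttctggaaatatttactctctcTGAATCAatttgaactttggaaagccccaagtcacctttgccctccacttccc
Cxcl10, chr5:92348890-92349139: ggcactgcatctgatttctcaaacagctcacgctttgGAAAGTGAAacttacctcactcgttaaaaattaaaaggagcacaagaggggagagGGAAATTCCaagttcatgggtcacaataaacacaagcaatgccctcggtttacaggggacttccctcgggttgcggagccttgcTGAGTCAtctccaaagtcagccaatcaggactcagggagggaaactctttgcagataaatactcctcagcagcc
The Cxcl10 stretch holds 1 ISRE-like match, 1 kappaB-like match and 1 AP-1 match, at 213, 158 and 74 bases before the start. Of 32851 promoters of 300 bases, 8.56% hold the ISRE-like motif, 4.26% the kappaB-like motif and 7.81% the AP-1 motif. The Ccl9 stretch holds an AP-1 match 53 bases before the start and TATA matches, found in 13.6% of promoters, and no ISRE-like or kappaB-like match. GAS letters, found in 8.30% of promoters, were in neither. The TATA matches lie 224, 94 and 92 bases before the start, and the last 2 of them overlap. RefSeq promoters were found for 5 of the 7 genes, and of the other 3 only Ccl1 held a kappaB-like match and only Ccl3 and Ccl1 an ISRE-like match. A match is a run of letters and says nothing of binding.

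Ccl1, the ligand of Ccr8, was barely detected, with 145 counts in all. The summed counts of 5 libraries were 54 in KO and 18 in WT cells with IL12, 11 in KO and 10 in WT cells with TGFB1, and 38 in KO and 14 in WT cells without cytokine. KO libraries 68 and 70 held most of the counts in KO cells with IL12, at 29 and 16, and without cytokine, at 15 and 16. It was called in no comparison, and differences were not detectable at this depth.

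The order of group means was shared by most genes at the top. KO cells with IL12 ranked highest for Ccl3, Ccl4, Ccl5, Ccl9 and Xcl1, KO cells without cytokine for Ccl1 and WT cells with IL12 for Cxcl10. Neighbouring groups in that order overlapped for all 7 genes, except that Ccl5 in KO cells without cytokine lay above WT cells without cytokine, Ccl5 in KO cells with TGFB1 lay below WT cells with TGFB1, and Xcl1 in WT cells with IL12 lay above WT cells with TGFB1.

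Counted over the 7 genes, KO against WT cells gave 2 higher and 0 lower without cytokine (Ccl3 and Ccl4), beside 2.1% of all genes tested called there, 1.08% higher and 1.02% lower. That background itself rested on single libraries without cytokine, with 246 genes called over all libraries, 7, 11 and 28 without KO library 74, 68 or 70, 564 without KO library 73, and 14, 17 and 96 without WT library 72, 71 or 75. With TGFB1, 2 of the 7 were higher and 1 was lower (Ccl5), beside 35.6% of all genes called, 18.3% higher and 17.3% lower, so that this share is near the background. With IL12 none of the 7 was called, beside 6.78% of all genes, 2.76% higher and 4.01% lower; 4 had an unadjusted p below 0.05, and DESeq2 called 0. The median log2 fold change of the 7 genes, KO against WT, was 0.79 with IL12, -0.27 with TGFB1 and 1.21 without cytokine, against medians over all genes within 0.01 of 0.

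IL12 against no cytokine raised 3 of the 7 genes in KO cells (Ccl3, Ccl9 and Cxcl10), beside 14.2% of all genes called, 8.49% higher and 5.74% lower. It raised 6 of the 7 in WT cells (all but Ccl1), beside 18.9% of all genes called, 10.5% higher and 8.3% lower. The medians were 0.69 in KO and 1.41 in WT cells. No gene of the 7 was called for a difference between genotypes in the IL12 response, which held for all genes tested, with 0% called; 513 genes and none of the 7 had an unadjusted p below 0.05, and DESeq2 called 0 as well. The larger count in WT cells is thus not a shown difference from KO cells, and the KO count was 5 with title numbers as a block.

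TGFB1 against no cytokine lowered 4 of the 7 genes in KO cells (Ccl4, Ccl5, Ccl9 and Xcl1), beside 24.5% of all genes called, 13.5% higher and 11% lower. In WT cells 0 of the 7 were called, beside 37.9% of all genes, 19.2% higher and 18.6% lower, with 0 at an unadjusted p below 0.05 and 0 by DESeq2. With title numbers as a block 1 was called. All 7 differences between genotypes in the TGFB1 response were negative, with a median of -1.17, and 1 of them was called (Ccl5), beside 3.3% of all genes, 1.61% higher and 1.69% lower. The 7 differences in the IL12 response were all negative as well, with a median of -0.46. Both sets use the same libraries without cytokine, where the KO against WT value was positive for 6 of the 7 genes. Set against TGFB1, IL12 raised 6 of the 7 genes in KO cells, beside 30.8% of all genes called, 14.9% higher and 15.9% lower. It raised 6 in WT cells as well, beside 52.5%, 26.6% higher and 25.9% lower, and Ccl1 was the exception in both. The Xcl1 call in WT cells, at 0.80 ± 0.33 (adjusted p = 0.0426), was lost without any 1 of 7 libraries, with adjusted p up to 0.0927. It was also lost with upper-quartile factors in place of TMM, in females only and with a fold minimum of 1.2. For Ccl9, IL12 against TGFB1 gave 5.55 ± 0.54 in KO (adjusted p = 4.25e-09) and 3.54 ± 0.48 in WT cells (adjusted p = 1.29e-06). The comparisons share libraries, so their values for a gene are not independent.

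**Figure D3:**
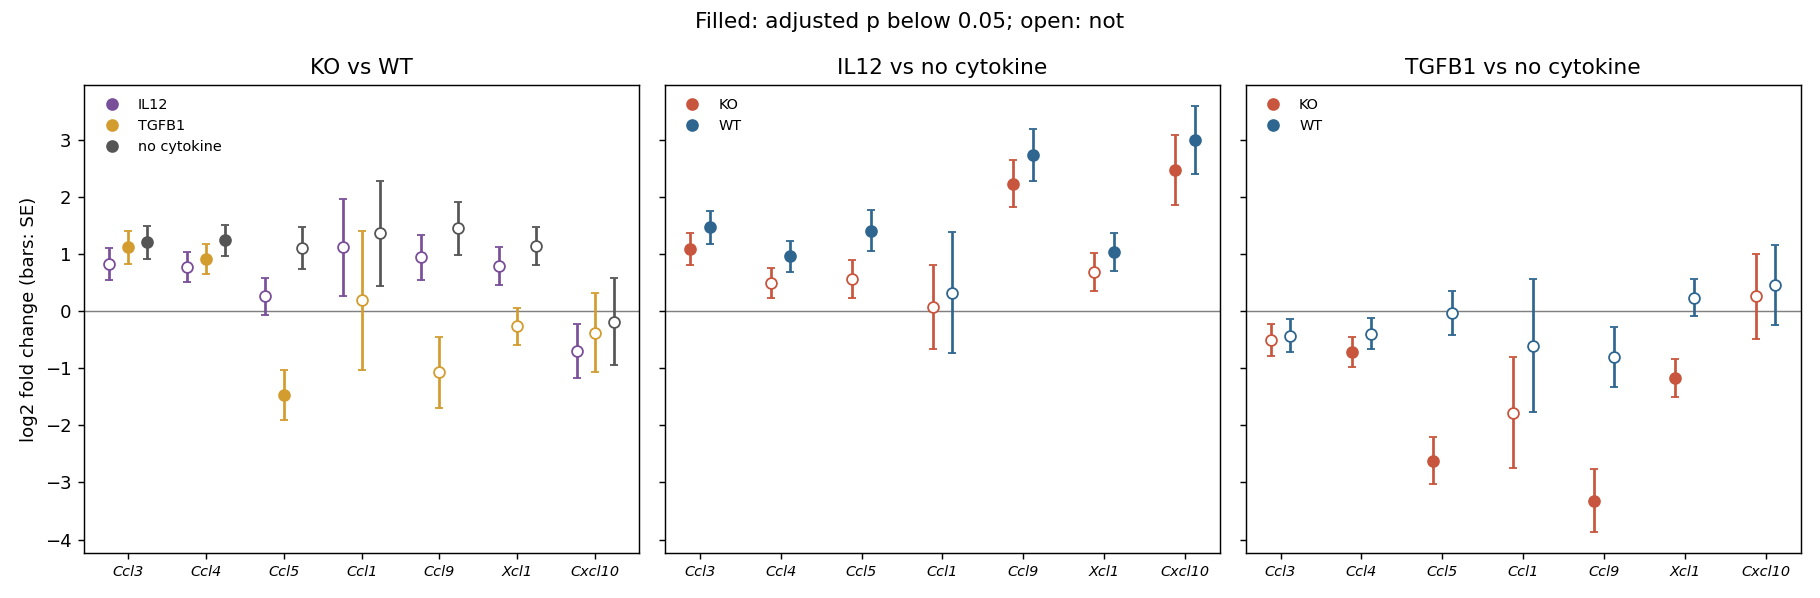
Log2 fold changes (y axis, bars show the SE) of the 7 genes (x axis) for KO against WT cells under each cytokine condition, for IL12 against no cytokine and for TGFB1 against no cytokine, with filled symbols where the adjusted p is below 0.05. The Ccl5 values with TGFB1 are -1.47 for KO against WT and -2.62 for TGFB1 against none in KO, and IL12 values for Ccl9 and Cxcl10 exceed 2 in both genotypes.

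After the group means were removed, log2 CPM of Ccl3 and Ccl4 had a Pearson r of 0.97 over the 30 libraries. The next closest pairs were Ccl1 and Xcl1 at 0.74, Ccl5 and Ccl9 at 0.69, Ccl5 and Cxcl10 and Ccl9 and Xcl1 at 0.57 each, and Ccl4 and Xcl1 at 0.55, while Xcl1 and Cxcl10 had -0.12. The points of each pair share library, total and title number, so these values describe the libraries and carry no p. The value of Ccl1 with Xcl1 rests on the 145 counts of Ccl1.

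**Figure D4:**
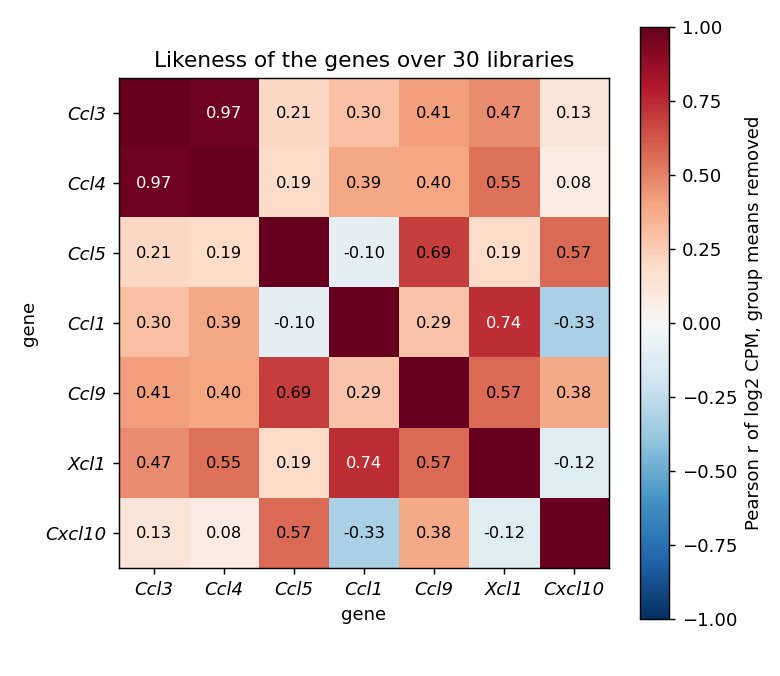
Pearson r of log2 CPM between the 7 genes (rows and columns) over 30 libraries with group means removed, on a colour scale that runs between -1 and 1. Ccl3 and Ccl4 stand out at 0.97, and Cxcl10 is close to 0 or negative with all genes but Ccl5 and Ccl9.

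Among 9429 genes of at least 4 CPM on average, the genes most like Ccl3 within groups were Ccl4, Hspa5 (Pearson r 0.92), a chaperone of the endoplasmic reticulum, and Nhp2 (0.91), a protein of ribosomal RNA processing. Hspa5 (0.93) and Nhp2 (0.92) also followed Ccl3 in the ranking for Ccl4. Ccl5 was most like Ifitm3 (0.84), an antiviral membrane protein, Ier5 (0.80) and Tapbpl (0.76). Ccl9 was most like Calr (0.78), another chaperone of the endoplasmic reticulum, Rnf121 (0.74) and Ifitm3 (0.73). For Xcl1 the closest were Adat2 (0.84), Pdcd1 (0.84), which encodes the checkpoint receptor PD-1, and Rgs16 (0.83), and for Cxcl10 Jun (0.80), Arl8a (0.80) and P2rx3 (0.80).

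With the differences between groups kept in, the ranking over the 30 libraries changed. Ccl9 was most like Prf1 (Pearson r 0.94), which encodes perforin, Ifitm3 (0.94) and Lilr4b (0.93), and Ccl5 was most like Serpinb6b (0.93), Ifitm3 (0.92) and Serpinb9 (0.90), an inhibitor of granzyme B. Xcl1 was most like Klrc1 (0.90), which encodes the receptor chain NKG2A, Pex3 (0.87) and Chst2 (0.87). Cxcl10 was most like Basp1 (0.90), Junb (0.89) and Sdcbp2 (0.88), Ccl3 was most like Ccl4 (0.98), Dmwd (0.96) and Ube2g2 (0.96), and Ccl4 was most like Ccl3, Ncs1 (0.95) and Epop (0.95). Ccl1 was too sparse for this ranking.

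Of 35 chemokine ligand genes listed, 13 passed the filter, which includes the 7, and 10 had no count in any library. The other 6 were Ccl6, Ccl20, Ccl22, Ccl25, Cxcl11 and Cxcl16. Ccl20, the ligand of Ccr6, was read almost only with TGFB1, with 195 counts in KO and 96 counts in WT cells with TGFB1, 1 count in KO cells without cytokine and 0 in the other 3 groups. Cxcl11, like Cxcl10 a ligand of Cxcr3, was read with IL12, with 34 counts in KO and 103 counts in WT cells, 2 counts in WT cells without cytokine and 0 in the other groups. TGFB1 against no cytokine raised Ccl20 in KO (adjusted p = 2.82e-05) and in WT cells (adjusted p = 0.00026), and IL12 raised Cxcl11 in KO (adjusted p = 0.0456) and in WT cells (adjusted p = 0.00377). In KO cells TGFB1 thus raised Ccl20 while Ccl4, Ccl5, Ccl9 and Xcl1 fell.

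Cxcl16 encodes the ligand of Cxcr6. Its mean was 2.67 ± 0.934 CPM in KO cells with IL12, against 1.14 ± 0.307 CPM in WT cells with IL12. It was higher in KO cells there by 1.23 ± 0.32 (adjusted p = 0.0233), the only 1 of the 13 ligands called, beside 6.78% of all genes. With TGFB1 it was also higher in KO cells, by 0.99 ± 0.39 (adjusted p = 0.0455). Ccl22, the ligand of Ccr4, rose with IL12 in WT cells by 3.04 ± 0.90 (adjusted p = 0.0187) on 48 counts with IL12 and 5 without. Ccl25 stayed between 2.71 and 4.21 CPM in group means and was called for IL12 against TGFB1 in WT cells, at 0.64 ± 0.25 (adjusted p = 0.0310).

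Among receptors of these ligands, Ccr8, Cxcr3 and Ccr1 were read in enough libraries to be tested. Ccr8, the receptor of Ccl1, had 2 counts in KO and 13 counts in WT cells with IL12, 130 counts in KO and 247 counts in WT cells with TGFB1, and 0 counts in KO and 9 counts in WT cells without cytokine, and TGFB1 raised it in KO (adjusted p = 3.43e-06) and WT cells (adjusted p = 5.17e-06). Cxcr3, the receptor of Cxcl10, rose with TGFB1 by 1.83 ± 0.45 in KO (adjusted p = 0.00338) and 2.60 ± 0.43 in WT cells (adjusted p = 5.64e-05), and was lower in KO cells with TGFB1, at -1.05 ± 0.39 (adjusted p = 0.0360). Ccr1 fell with TGFB1 in KO cells, at -1.93 ± 0.65 (adjusted p = 0.0300), on 10 counts with TGFB1 and 40 without. Xcr1 had 1 count in all libraries and Ccr3 had 27, so neither was tested, and of 5 decoy and atypical receptors only Ccrl2 passed the filter.

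Of 12 cytokines of activated T cells, KO against WT cells without cytokine had 1 called, beside 2.1% of all genes. It was Il2, the growth factor of T cells, which was higher in KO by 2.71 ± 0.50 (adjusted p = 0.0105). Csf2 and Tnfsf11, next by p, were not called, and the list median was 0.58. IL12 against no cytokine raised 3 of the 12 in KO and 9 in WT cells, beside 8.49% of all genes higher in KO and 10.5% in WT, with list medians of 0.68 in KO and 1.02 in WT cells, and in both genotypes the smallest p values were those of Ifng, Il3 and Cd40lg. Ifng, which encodes interferon gamma, had means of 637 ± 447 CPM in KO cells and 795 ± 519 CPM in WT cells with IL12, against 15 ± 8.02 CPM in KO and 9.51 ± 3.33 CPM in WT cells without cytokine. TGFB1 lowered 5 of the 12 in KO and 2 in WT cells, beside 11% of all genes lower in KO and 18.6% in WT, among them Csf1 in both, at -2.26 ± 0.29 in KO (adjusted p = 8.85e-07) and -0.99 ± 0.27 in WT cells (adjusted p = 0.00540).

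Of 20 genes known to respond to interferon gamma, 17 passed the filter, and IL12 lowered 9 of them in KO and 11 in WT cells while 1 rose in each genotype, beside 5.74% of all genes lower in KO and 8.3% in WT. The one that rose was Cxcl11. The list medians were -0.44 in KO and -0.42 in WT cells, against medians over all genes within 0.02 of 0. Irgm1, a GTPase of defence against pathogens in cells, led with -0.97 ± 0.09 in KO (adjusted p = 6.91e-08) and -1.02 ± 0.09 in WT cells (adjusted p = 2.81e-08), followed by Iigp1 at -1.97 ± 0.23 in KO and -2.06 ± 0.23 in WT cells. In KO against WT cells, 4 of the 17 were lower and 0 higher with IL12, 7 lower and 2 higher with TGFB1, and 5 lower and 0 higher without cytokine. Of all genes, 4.01% were lower and 2.76% higher with IL12, 17.3% lower and 18.3% higher with TGFB1, and 1.02% lower and 1.08% higher without cytokine. Irf1, a transcription factor of this response, was among the 4 targets lower with IL12, at -0.70 ± 0.13 (adjusted p = 0.00436).

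Of 30 transcription factors of activated and effector T cells, all passed the filter. KO against WT cells without cytokine had 3 higher and 0 lower, beside 1.08% of all genes higher and 1.02% lower. The 3 were Rel at 0.57 ± 0.14 (adjusted p = 0.0283), Rela at 0.30 ± 0.08 (adjusted p = 0.0338) and Egr2 at 0.87 ± 0.24 (adjusted p = 0.0469). Rel and Rela are subunits of NF-kappaB and Egr2 is an early factor downstream of the T cell receptor. With IL12, Rel at 0.70 ± 0.14 (adjusted p = 0.00436) and Egr2 at 0.76 ± 0.23 (adjusted p = 0.0451) were higher in KO cells. No other was called, beside 2.76% of all genes higher and 4.01% lower. With TGFB1, 5 of the 30 were higher and 7 lower in KO cells. Beside 18.3% of all genes higher and 17.3% lower, this share is near the background. The smallest p values were those of Smad2 at 0.50 ± 0.07 (adjusted p = 7.88e-05) and Stat4 at -0.87 ± 0.16 (adjusted p = 0.000364). IL12 against no cytokine raised 14 of the 30 in KO cells, and 14 with 1 lower in WT cells, beside 8.49% of all genes higher in KO and 10.5% in WT, led by Tbx21, Jun and Junb, with list medians of 0.45 in KO and 0.50 in WT cells. Tbx21, the effector factor T-bet, rose by 1.62 ± 0.19 in KO (adjusted p = 9.81e-07) and by 1.83 ± 0.19 in WT cells (adjusted p = 1.74e-07).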

How the data were processed

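RNA-seq of 30 libraries in 6 groups of 5 was analysed. Per the labels' protocols, poly(A) RNA went into directional libraries. The submitters' processing notes name GRCm38, STAR, Trim Galore, FastQC and DESeq2 1.24.0. Which tool counted reads, and with which strand setting, is not given in the sources used here. The authors deposited raw counts per gene, with GENCODE identifiers. Genes were kept by edgeR's filterByExpr (minimum count 10), which left 11718 genes with 99.9% of counts. TMM factors and edgeR's quasi-likelihood test (edgeR 4.0.16, R 4.3.3, 24 residual degrees of freedom) were fitted over all 30 libraries with 1 mean per group, and p-values were adjusted by Benjamini-Hochberg over all genes. CPM were counts scaled by TMM-adjusted totals. Totals of 7306151 to 15502443 leave genes of few counts, such as Ccl1, with wide counting error. The test was checked on simulated data. DESeq2 1.42.0, limma 3.58.1 and other settings were alternatives. Genes most like a member were the 3 with the highest Pearson r of log2 CPM. Other lists are named by their 3 smallest p-values, beside a few genes chosen after their values were seen. The genes and lists were chosen with earlier results of these data known. Sequences are from GENCODE vM21 and RefSeq. The result of 1 listed gene is not reported here.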

Additional observations from a re-analysis of the deposited data

Results flagged for a closer look

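Dixon's test was applied to the 7 genes and the Ccl3 to Ccl4 ratio in each group of 5 libraries, 48 tests in all. In 5 tests a library stood apart from the other 4 of its group, where chance gives about 1 in 20 tests for normal values. The genes are correlated, so the tests are not independent, and KO library 74 with IL12 was flagged for both Ccl5 and Ccl9. Ccl5 had 23.9 CPM in KO library 74 with IL12 and 22.9 CPM in WT library 75 with IL12. Ccl9 had 197 CPM in KO library 74 with IL12 and 12 CPM in WT library 75 with TGFB1. Ccl1 had 1.5 CPM in WT library 62 with IL12, from 11 counts.

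The response of Ccl5 to TGFB1 differed between genotypes, by a log2 difference of -2.58 (KO minus WT, edgeR's quasi-likelihood interaction, adjusted p = 0.0198). All 5 KO libraries with TGFB1 lay below all 5 KO libraries without cytokine, and the WT libraries of both conditions overlapped. The call was lost without WT library 75 with TGFB1 (adjusted p = 0.0588) and with a fold minimum of 1.2 (adjusted p = 0.0701).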

How the results depend on the processing

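No called fold change of the 7 genes changed sign under the alternatives run. Of 899 values of single genes under alternatives that leave out no library, 864 stayed on their side of the threshold, 10 were no longer called and 25 became called. Of 2310 values without 1 library, 2255 stayed on their side, 36 were no longer called and 19 became called. Values that were not called could change sign. Ccl5 in KO against WT cells with IL12, for example, ran from -0.10 to 0.75 without 1 library. Counts of the 7 genes called moved by over 1.5 times as follows, and the cause was not tested. KO against WT without cytokine had 2, against 4 by DESeq2, 4 when only the groups compared were fitted and 0 with a fold minimum of 1.2. With IL12 it had 0, against 2 with no filter, 1 by limma-voom, 1 with the replicate block and 2 in females only. TGFB1 against none in WT had 0, against 1 with the replicate block, and IL12 against none in KO had 3, against 5 with it. The difference in TGFB1 response had 1, against 2 with no filter, 2 by DESeq2, 3 with the replicate block, 2 with only the groups compared, 3 in females only, 2 with a term for title numbers above 70 and 0 with the fold minimum.

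Leaving out each library gave 0 to 4 of the 7 genes called for KO against WT without cytokine, 3 to 3 with TGFB1 and 0 to 2 with IL12. TGFB1 against none gave 3 to 4 in KO and 0 to 1 in WT. IL12 against none gave 2 to 3 in KO and 5 to 6 in WT, and IL12 against TGFB1 gave 6 to 6 in KO and 5 to 6 in WT. The genotype difference gave 0 to 3 for TGFB1 and 0 to 0 for IL12.

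Over all genes, 246 were called for KO against WT without cytokine, against 460 by DESeq2, 1099 with only the groups compared and 8 with the fold minimum. With TGFB1, 4166 were called, against 2307 and 1322 by the last 2 of these. With IL12, 794 were called, against 504 with no filter, 45 with only the groups compared and 15 with the fold minimum. The difference in TGFB1 response had 387, against 774 by DESeq2, 1073 with the replicate block, 1250 in females only and 4 with the fold minimum. The fold minimum gave 1130 of 2875 for TGFB1 in KO, 1729 of 4439 in WT, 534 of 1668 for IL12 in KO, 692 of 2209 in WT, and 1583 of 3605 and 3411 of 6150 for IL12 against TGFB1 in KO and WT.

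The replicate block used the title number shared by 3 libraries, which the labels do not tie to an animal. Deviations from the group means of 30 same-number pairs correlated at -0.03 to 0.43 (median 0.22), 26 above 0.1, and 13 of 30 libraries correlated best with their own number. With the block, IL12 against none in KO was also called for Ccl4 (adjusted p = 0.0218) and Xcl1 (0.0330), TGFB1 against none for Ccl3 in KO (0.0294) and Ccl4 in WT (0.0403), KO against WT with IL12 for Ccl9 (0.0424), and the difference in TGFB1 response for Ccl9 (0.0277) and Xcl1 (0.0196). KO and WT share no number, so a block compares genotypes between numbers. For KO against WT the number entered limma-voom as a correlation, of 0.14, and for the other comparisons it was a term in edgeR's fit. Without the block, limma-voom also called Ccl9 for KO against WT with IL12. Ccl1, Cxcl10 and the smaller groups of Ccl5 are limited by their counts.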
